A study of Mus musculus with 12 samples.

Results

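A group of 9 noncoding RNA genes, 8 of them annotated at 57 to 423 bases and 1 at 1831 bases, was followed through a YTHDF2 RNA immunoprecipitation of tumor-infiltrating myeloid cells. They are *Rn7sk* (7SK RNA), *Rn7s1* and *Rn7s2* (7SL RNA), *Rmrp* (RNase MRP RNA), *Rpph1* (RNase P RNA), *Terc* (telomerase RNA) and the loci *Gm23935*, *Gm24270* and *Gm42418*. These 9 genes, of 54446 genes counted in each library, were matched by symbol, and *Rmrp* has 2 identifiers, which makes 10 identifiers in all. The first 6 were treated as taken for what they are, which for *Terc* is an assumption, since the rule for the group does not name telomerase RNA. The 3 *Gm* loci were chosen because their counts differed strongly between irradiated and unirradiated Inputs. That difference is therefore given as a description, with no test.

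7SK RNA holds the elongation kinase P-TEFb inactive in a particle with HEXIM and LARP7, so that its release lets RNA polymerase II leave promoter-proximal pauses. 7SL RNA is the scaffold of the signal recognition particle, which carries ribosomes making secreted and membrane proteins to the endoplasmic reticulum. RNase P RNA trims the leaders of tRNA precursors, RNase MRP RNA takes part in cutting the ribosomal RNA precursor, and telomerase RNA is the template for telomere repeats. The mature forms of these RNAs carry no poly(A) tail, whereas the best known ligands of YTHDF2, a cytoplasmic reader of m6A, are polyadenylated mRNAs.

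The cells were CD11b+ myeloid cells of young adult WT mice of both sexes, which in all groups carried *Ythdf2* f/f alleles on a C57BL/6J background, bearing MC38 tumors, a mouse colon carcinoma line. Mice were unirradiated (Ctrl) or had received local IR of 20 Gy 3 days earlier (IR). Each condition had 3 pools of 5 mice, named technical replicates in the study's methods, and each pool gave an Input and a YTHDF2 IP library, 12 libraries in 4 groups. The p-values below therefore measure only the spread between pools, which may be technical.

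The sample records describe selection of mRNA with oligo(dT) beads before the RIP, whereas the study's methods describe extraction of total RNA from Input and IP and a total RNA kit, and the antibodies named come from different makers. Which of the accounts holds decides how RNAs without a poly(A) tail enter a library, and this cannot be settled from the counts. Gene counts summed to 34445784 to 40008607 in unirradiated Inputs, 37940948 to 42382532 in irradiated Inputs, 28919897 to 33882664 in unirradiated IPs and 27852948 to 30244160 in irradiated IPs. All 8 myeloid markers had counts in every Input, with a summed level of 6016 to 6488 CPM in Ctrl and 7831 to 8220 CPM in IR. CPM are counts scaled to the library total multiplied by its TMM normalization factor. The epithelial markers summed to 119 to 127 CPM in unirradiated and 90.8 to 96.8 CPM in irradiated Inputs, of which *Cdh1* made up nearly all, *Epcam* averaged 4.63 and 5.92 CPM, and *Krt8* was at or near 0. B-cell markers summed to 10.2 to 10.8 CPM in Ctrl and 17.5 to 21.4 CPM in IR, T and NK markers to 3.82 to 4.76 and 3.17 to 3.75 CPM, and endothelial and fibroblast markers to 30.8 to 32.9 and 28.9 to 32.7 CPM. The part of other cells in the results below was not tested.

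The sequences matter here because several members are near-identical copies, which decides how far their counts can be read separately. *Rn7s1* (chr12:69159295-69159594, plus strand) and *Rn7s2* (chr12:69361182-69361481, minus strand) were the same over all 300 bases in the GENCODE M21 transcripts of the mm10 build used by the files. In *Rn7s1*, 147 bases lie under nested microRNA genes of the same strand (*Gm47287* and *Gm47295*), which had 0 counts in every library.

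*Gm23935* (chr16:11144125-11144181, plus strand, inside the body of *Zc3h7a*) and *Gm24270* (chr9:56223715-56223771, minus strand, inside the body of *Peak1*) are annotated as microRNA genes of 57 bases. Their sequences were identical to each other and to *Gm24245* (chr4:139338304-139338360), and 3 more annotated loci were close to them. *Gm24187* (chr13:9834469-9834525) had 1 mismatch, *Gm25911* (chr1:167340369-167340424) had 1 mismatch and 1 gap, and *Gm23388* had 4 mismatches. Capitals mark bases that differ from *Gm23935*.

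Gm23935: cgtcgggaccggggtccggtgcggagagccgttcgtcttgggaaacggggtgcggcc
Gm24187: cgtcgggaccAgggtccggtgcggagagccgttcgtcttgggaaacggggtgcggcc
Gm25911: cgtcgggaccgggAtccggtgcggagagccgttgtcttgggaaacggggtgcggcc
Gm23388: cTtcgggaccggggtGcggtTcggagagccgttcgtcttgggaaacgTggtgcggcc

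*Gm42418* (chr17:39846958-39848788, plus strand) is annotated as a lincRNA of 1831 bases, of which 1822 lie under exons of opposite-strand genes, *AY036118* and *CT010467.1*, the latter annotated as rRNA. Its first 120 bases are shown because they hold a stretch familiar from the small ribosomal subunit RNA. The members were not compared with ribosomal RNA sequence here.

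Gm42418 5 prime part: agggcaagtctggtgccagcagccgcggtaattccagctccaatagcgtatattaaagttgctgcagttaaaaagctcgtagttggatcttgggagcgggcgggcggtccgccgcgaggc

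*Rn7sk* (chr9:78175303-78175633, minus strand, 331 bases) shared no base with an exon of another gene on either strand, so its counts rest on its own sequence. Its first 110 bases hold GATC, the letters of the HEXIM-binding part of the 7SK hairpin, 3 times (capitals). GATC reads the same on both strands, and 25.5% of 138029 annotated transcripts of at least this length hold it in the same window. Of all 138029, 3.66% hold it there 2 or more times.

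Rn7sk 5 prime part: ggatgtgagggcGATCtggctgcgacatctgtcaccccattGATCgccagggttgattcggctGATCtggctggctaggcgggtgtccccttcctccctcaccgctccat

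GGACT, a common form of the m6A motif, was searched on the RNA strand of the members' transcripts. It was found in 1 of 10, that of *Terc*, whereas 34.97% of 16517 annotated transcripts of 250 to 450 bases hold it, a length range that leaves out the 57-base loci and *Gm42418*. The members were rich in G and C, from 58.0% in *Rn7sk* to 73.7% in *Gm23935* and *Gm24270*.

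Together the 9 genes took 4.27% ± 0.12 (SD, n = 3) of the gene counts in unirradiated Inputs and 0.636% ± 0.022 (SD, n = 3) in irradiated Inputs. In the IP the order turned, with 0.343% ± 0.028 (SD, n = 3) in Ctrl and 0.669% ± 0.058 (SD, n = 3) in IR. Nearly all of it was *Gm23935*, and without it the shares were 0.414% ± 0.014, 0.0733% ± 0.00080, 0.0732% ± 0.0061 and 0.104% ± 0.0076 (SD, n = 3 each) in the same order of groups. In bulk samples fewer cells of a type and less RNA per cell cannot be told apart.

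*Rn7sk* had 44157, 51140 and 53586 counts in unirradiated Inputs and 9613, 9123 and 9414 in irradiated Inputs. In the IP it had 2648, 2719 and 2197 counts in Ctrl and 5798, 6341 and 5773 in IR. The 4 groups did not overlap, and unirradiated Inputs were highest and unirradiated IPs lowest. On the scale of all libraries its level was 1297 ± 30 CPM (SD, n = 3) in unirradiated Inputs, 244 ± 9.8 CPM (SD, n = 3) in irradiated Inputs, 83.8 ± 1.7 CPM (SD, n = 3) in unirradiated IPs and 188 ± 7.7 CPM (SD, n = 3) in irradiated IPs. It ranked 60 by level among all genes in unirradiated Inputs and 2256 in unirradiated IPs.

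For 7SL, *Rn7s1* had 5413, 5205 and 5827 counts in unirradiated Inputs and 841, 713 and 900 in irradiated Inputs. Its IP counts were 106, 122 and 97 in Ctrl and 202, 190 and 178 in IR. *Rn7s2* had 10585, 10746 and 11421 counts in unirradiated Inputs, 1810, 1541 and 1793 in irradiated Inputs, 208, 218 and 165 in unirradiated IPs and 381, 363 and 336 in irradiated IPs. For both copies the groups were separate and in the same order as for *Rn7sk*. The ratio of *Rn7s2* to *Rn7s1* counts stayed between 1.70 and 2.16 in the 12 libraries. Since the copies are identical, a read lying wholly in them would align to both, and reads with more than 1 alignment were left out. How the counted reads were placed on a single copy was not examined, and the pair is better read as 1 RNA.

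*Gm23935* had 1369610, 1439322 and 1531817 counts in unirradiated Inputs and 240809, 207284 and 234492 in irradiated Inputs. In the IP it had 85467, 85795 and 85293 counts in Ctrl and 157854, 160754 and 173542 in IR. It was the gene with the highest mean level in unirradiated Inputs, ranked 6 in irradiated Inputs, 21 in unirradiated IPs and 4 in irradiated IPs. The groups did not overlap in counts. In CPM the irradiated Inputs and IPs overlapped, the other groups did not, and they averaged 37894 ± 1122 and 5905 ± 247 CPM in the Ctrl and IR Inputs and 2862 ± 273 and 5172 ± 543 CPM in the Ctrl and IR IPs (SD, n = 3 each).

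*Gm24270* gave the same picture at a lower level, with 9336, 9834 and 10673 counts in unirradiated Inputs and 1744, 1588 and 1734 in irradiated Inputs. Its IP counts were 665, 661 and 603 in Ctrl and 1076, 1243 and 1354 in IR. Despite identical sequence, *Gm23935* had 128 to 147 times the counts of *Gm24270*, a ratio that averaged 146 ± 1.7 in unirradiated Inputs and 135 ± 3.8 in irradiated Inputs (SD, n = 3 each). The third identical locus, *Gm24245*, had 104, 130 and 133 counts in unirradiated Inputs, 18, 17 and 20 in irradiated Inputs, 4, 10 and 5 in unirradiated IPs and 14, 17 and 10 in irradiated IPs. The counts of these loci therefore do not add independent observations to each other, and *Gm24245* too was highest in unirradiated Inputs and lowest in unirradiated IPs.

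*Gm42418* had 76219, 74907 and 87396 counts in unirradiated Inputs and 16182, 14494 and 17492 in irradiated Inputs. Its IP counts were 19173, 19832 and 20124 in Ctrl and 21044, 22712 and 23618 in IR. In CPM the Ctrl and IR IPs overlapped, at 660 ± 77 and 708 ± 73 CPM (SD, n = 3 each), unlike those of the other abundant members.

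The remaining 3 RNAs were near or below the level that these libraries could detect. *Rpph1* (chr14:50807449-50807767, minus strand) had 29, 26 and 23 counts in unirradiated Inputs and 4, 4 and 3 in irradiated Inputs, with 1, 0 and 1 in unirradiated IPs and 0, 4 and 2 in irradiated IPs. Of its 319 bases, 233 are shared with an exon of *Ccnb1ip1* on the same strand. *Terc* (chr3:96414437-96414859, minus strand) had 23, 20 and 48 counts in unirradiated Inputs, 6, 14 and 0 in irradiated Inputs, 0, 27 and 1 in unirradiated IPs and 1, 0 and 11 in irradiated IPs, so that single pools decided its IP level.

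*Rmrp* had 0 counts under both identifiers in all 12 libraries. Its ribozyme entry (chr4:43492788-43493058) lies wholly inside its lincRNA entry, which has 10 bases of its own, so that reads on both would be set aside by a counter that drops ambiguous reads. The counting mode is not given in the sources used here, and the 0 is no measure of the RNA.

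**Figure D1:**
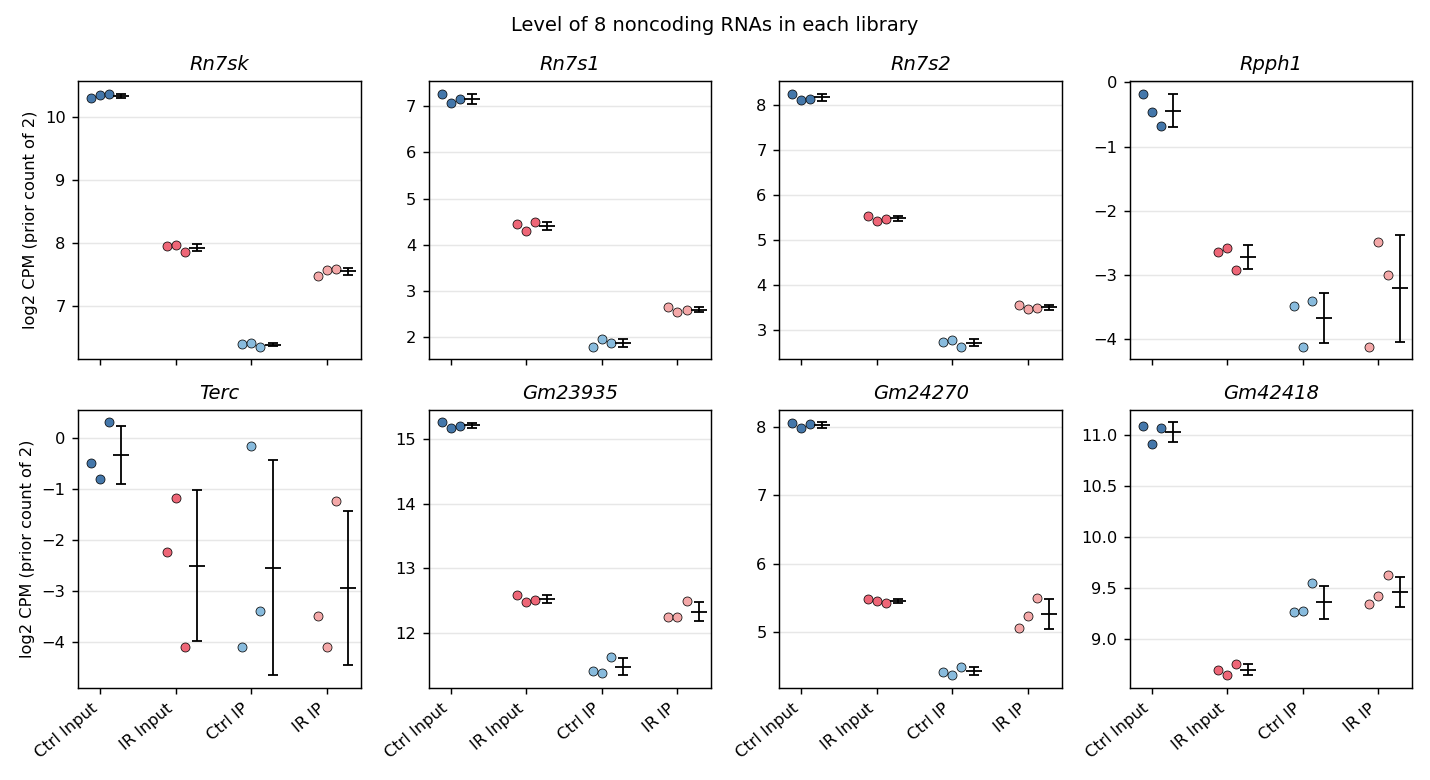
Level in each library of the 8 members with counts, as log2 CPM with a prior count of 2 (vertical axes, a separate scale for each gene), for the 4 groups (horizontal axis). Points are pools and the bar beside them is the mean with its SD (n = 3). The 7SK and 7SL genes, Gm23935 and Gm24270 are highest in unirradiated Inputs and lowest in unirradiated IPs, and irradiated IPs lie above unirradiated IPs without overlap.

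In the Inputs, the comparison that chose the loci, the 8 members with enough counts were lower in IR than in Ctrl by similar amounts. The log2 fold change was -2.49 ± 0.032 (SE) for *Rn7sk*, -2.84 ± 0.057 for *Rn7s1*, -2.76 ± 0.044 for *Rn7s2*, -2.76 ± 0.026 for *Gm23935*, -2.65 ± 0.040 for *Gm24270* and -2.40 ± 0.038 for *Gm42418*. That is a 5.61-fold lower level for *Rn7sk* and a 5.28-fold lower level for *Gm42418*, and for both copies of 7SL the groups were further apart, at 7.15-fold and 6.79-fold. *Terc* was at -2.21 ± 0.65 (SE), and at -3.39 without IR Input pool 2. For *Rpph1*, 78 counts in unirradiated Inputs stood against 11 in irradiated Inputs, a ratio scaled by library totals of 7.64 (95% exact interval 4.04 to 15.9, counting error only). That interval is no test of a difference between the groups. *Rpph1* met the filter only through its Ctrl Inputs and *Terc* mainly through them, where both are high. Their lower values were thus favoured in advance. Among 16914 genes tested in the Inputs, 23.9% were lower and 21.0% higher in IR, and the median of all genes was 0.0072, so the members lay far from the bulk of genes as the choice of the loci required.

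To ask whether these RNAs also differed in the material recovered with YTHDF2, IR was compared with Ctrl in the IP libraries. The rule for the loci names the Inputs alone, but the IPs came from the same lysates and the members were proposed with earlier results known, so the test is no independent evidence. *Rn7sk*, *Rn7s2*, *Gm23935* and *Gm24270* rose in the IP after IR, opposite in direction to the Inputs, and 4 of 9 members thus passed the test, all 4 higher, whereas 6.12% of 19255 genes tested were called higher and 9.85% lower. *Rn7sk* rose 2.25-fold, a log2 fold change of 1.17 ± 0.068 (SE, adjusted p = 4.49e-09, quasi-likelihood test of edgeR, adjusted by Benjamini-Hochberg over all genes). *Gm23935* rose by 0.86 ± 0.064 (SE, adjusted p = 7.78e-08) and *Gm24270* by 0.86 ± 0.14 (SE, adjusted p = 3.65e-04) in the same edgeR fit. The last 2 share their sequence and count as 1 observation. In size these rises were not outlying. Of the 19255 genes, called or not, 2649 had a higher value than *Rn7sk* and 3569 a higher value than *Gm23935*.

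The copies of 7SL were closer to the threshold. *Rn7s2* rose by 0.80 ± 0.21 (SE, edgeR adjusted p = 0.0154), and without Ctrl IP pool 1 its adjusted p was 0.0521 and without Ctrl IP pool 3 it was 0.0709. *Rn7s1* did not pass, at 0.74 ± 0.29 (SE, edgeR adjusted p = 0.0977), and its adjusted p ranged from 6.27e-05 to 0.283 over 13 alternatives, of which 2 called it. The IR and Ctrl IPs of both copies did not overlap.

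*Gm42418* differed by 0.11 ± 0.075 (SE, edgeR adjusted p = 0.375) and its groups overlapped. Scaling by library size alone gave it 0.31 with an adjusted p of 0.00466, and over its 13 alternatives the adjusted p ran from 0.00466 to 0.805. That scaling moves the median of all genes in the IP from 0.062 to 0.26 and turns the split of all calls from 1179 higher and 1896 lower to 2638 higher and 839 lower. Relative to that median *Gm42418* was at 0.048 with TMM and 0.049 with library size, and *Rn7sk* at 1.11 with either. *Rmrp*, *Rpph1* and *Terc* did not pass the filter of at least 10 counts in at least 3 libraries.

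**Figure D2:**
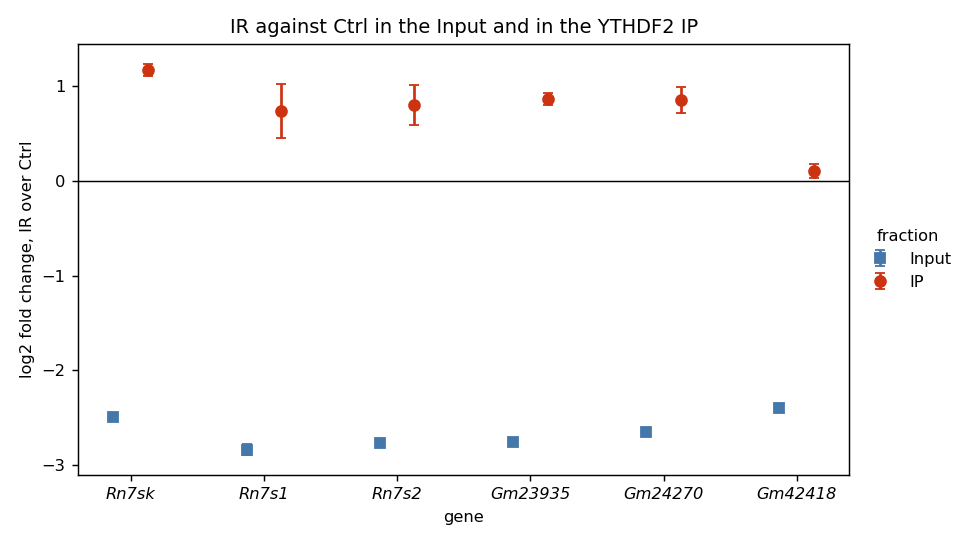
Log2 fold change of IR over Ctrl (vertical axis) in the Input (squares) and in the IP (circles) for the 6 members that passed the filter in both, with the standard error of each fit as bars (3 pools per group). Input values lie between -2.84 and -2.40, and IP values between 0.11 and 1.17. The Input contrast chose the loci and carries no test.

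The IP against the Input of the same condition asks which RNAs lie above or below their abundance in the material recovered with YTHDF2. The libraries include no IP with a control antibody or from cells without YTHDF2. RNA bound by YTHDF2 and RNA carried over from the lysate therefore cannot be told apart in the IP values here. In Ctrl, 7SK and 7SL were far below their Input level. *Rn7sk*, *Rn7s1* and *Rn7s2*, 3 of the 6 members taken for what they are, were called lower, against 34.6% of 17416 genes called lower. The copies of 7SL share their sequence and are better read together. The 6 also include *Rmrp*, which could not be tested, and *Rpph1*, which is set aside below, so the shares are not of the same kind. *Rn7sk* fell 14.7-fold, by 3.88 ± 0.040 on the log2 scale (SE, adjusted p = 2.00e-20, quasi-likelihood test of edgeR, Benjamini-Hochberg adjusted). *Rn7s1* fell by 5.24 ± 0.089 (SE, edgeR adjusted p = 4.08e-18) and *Rn7s2* by 5.37 ± 0.069 (SE, edgeR adjusted p = 2.25e-19), and 21 genes of all those tested had a lower value than *Rn7s2*. These libraries include unirradiated Inputs, which also entered the comparison between Inputs, and the members were proposed with earlier results known. The test is therefore no independent evidence.

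*Rpph1* met the filter only through its Inputs, where it is high, so its lower call is not counted here. Its counts were 78 in unirradiated Inputs and 2 in unirradiated IPs, a ratio scaled by library totals of 33.1 (95% exact interval 8.85 to 278). *Terc* did not pass at -1.30 ± 0.93 (SE, edgeR adjusted p = 0.227). Without Ctrl IP pool 2, which held 27 of its 28 IP counts, the value was -5.13 with an edgeR adjusted p of 7.63e-04. In that fit *Terc* met the filter only through its Inputs, where it is high, so this call is not counted either. Over all 13 alternatives the adjusted p of *Terc* ran from 7.63e-04 to 0.477. For the loci chosen on their Inputs the values, with no test, were -3.65 for *Gm23935*, -3.53 for *Gm24270* and -1.58 for *Gm42418*.

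In IR the distances from the Input were smaller in size. *Rn7sk*, *Rn7s1* and *Rn7s2*, 3 of the 6, passed the test and were lower in the IP, against 30.5% of 18650 genes called lower. Here too the copies of 7SL are better read together, and the irradiated Inputs entered the comparison between Inputs, so the test is no independent evidence. *Rn7sk* was 1.25-fold lower, with a log2 fold change of -0.33 ± 0.052 (SE, adjusted p = 2.66e-04, quasi-likelihood test of edgeR, Benjamini-Hochberg adjusted). That value was not outlying, since 6845 of the 18650 genes had a lower one, against 1072 below *Rn7s2*. The 7SL copies stayed further below, at -1.77 ± 0.15 for *Rn7s1* (SE, edgeR adjusted p = 1.43e-06) and -1.92 ± 0.11 for *Rn7s2* (SE, edgeR adjusted p = 5.02e-08). *Gm23935* was at -0.14, or 0.0067 when scaled by library size alone, *Gm24270* at -0.13 or 0.014, and *Gm42418* at 0.82 or 0.96, all 3 without a test.

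*Rpph1* had 11 counts in irradiated Inputs and 6 in irradiated IPs, a ratio scaled by library totals of 1.32 (95% exact interval 0.447 to 4.35), so that no difference was detectable at this depth. *Rpph1*, *Terc* and *Rmrp* did not pass the filter in IR.

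Pool by pool, log2(IP/Input) of *Rn7sk* was -3.90, -3.95 and -4.01 in Ctrl and -0.47, -0.40 and -0.27 in IR. *Rn7s2* had -5.49, -5.33 and -5.50 in Ctrl and -1.98, -1.95 and -1.98 in IR. *Gm23935* had -3.84, -3.79 and -3.57 in Ctrl and -0.35, -0.24 and -0.0014 in IR. For these 3 genes no pool of one condition reached the range of the other.

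The means differed between IR and Ctrl by 3.57 for *Rn7sk*, 3.48 for *Rn7s1*, 3.47 for *Rn7s2*, 3.54 for *Gm23935* and 3.40 for *Gm24270*, with standard errors from 0.057 to 0.15. *Gm42418* differed by 2.42 ± 0.11 (SE). These differences contain the comparison between Inputs that chose the loci, and for each of these genes the Input term is larger than the IP term, so no test is given.

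**Figure D3:**
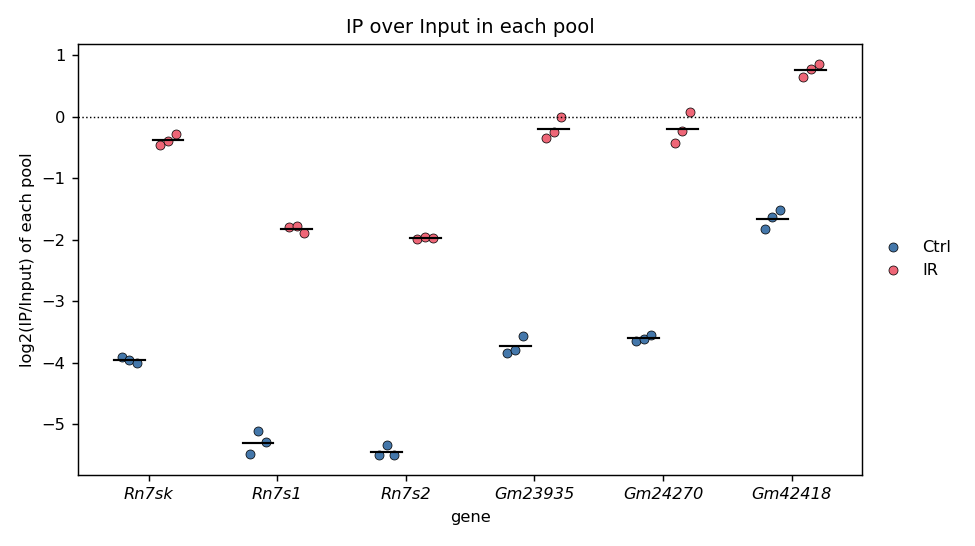
Log2(IP/Input) of each pool (vertical axis, each IP set against the Input of its own lysate, prior count of 2) for 6 members in Ctrl (blue) and IR (red), with the mean of 3 pools as a line. All Ctrl pools lie at or below -1.52, and the IR pools of Gm42418 are the ones above 0.64, while the 7SL copies in IR lie between -1.98 and -1.77.

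The members also differed among themselves. The ratio of *Rn7sk* to *Rn7s2* counts was 4.54 ± 0.32 in unirradiated Inputs and 5.49 ± 0.37 in irradiated Inputs, but 12.8 ± 0.43 in unirradiated IPs and 16.6 ± 1.2 in irradiated IPs (SD, n = 3 each). Inputs and IPs did not overlap in this ratio within either condition (exact permutation p = 0.10, two-sided, the smallest that 3 pools against 3 allow). The ratio of *Gm23935* to *Gm42418* counts fell from 18.2 ± 0.88 in unirradiated Inputs to 4.34 ± 0.11 in unirradiated IPs and was 7.31 ± 0.21 in irradiated IPs (SD, n = 3 each). Per length, the level of *Rn7sk* was 3917 CPM per kb in unirradiated Inputs, against 479 and 954 CPM per kb for *Rn7s1* and *Rn7s2* and 1137 CPM per kb for *Gm42418*. The 57-base loci are shorter than usual library fragments, and levels per length are not given for them.

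Leaving the members out, genes whose log2 CPM followed that of *Rn7sk* most closely over the 12 libraries, with only genes averaging 100 counts or more per library considered, were *Hipk1* (Pearson r = 0.993), *Gm24447* (r = 0.990) and *Gm24187* (r = 0.985), the last a near copy of *Gm23935*. For *Gm23935* they were, again without the members, *Hist1h4d* (r = 0.990), *Gm24187* (r = 0.987) and *Hnrnpul1* (r = 0.986). *Hist1h4d* is a replication-dependent histone gene, whose mRNA ends without a poly(A) tail, whereas *Hipk1* and *Hnrnpul1* are protein-coding genes outside that class. Whether a tail bears on the pattern was not tested. The libraries of a group share treatment and fraction, so these values mostly describe the order of 4 groups and are given with no p. Among the members, *Gm24270* had r = 0.999 with *Gm23935*, and *Rn7sk* had r = 0.990.

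Other noncoding RNAs were set beside the members from a list of 14 (Y RNAs, vault RNA, minor spliceosomal RNAs, snoRNAs, scaRNA, mitochondrial rRNAs and the lincRNA loci *AY036118* and *Gm26917*). In the Inputs 9 were tested and 9 were lower in IR, with log2 fold changes from -2.77 to -0.52 and a median of -2.15, against 23.9% of all genes and a median of 0.0072. *Rnu12* (-2.77) had 14 to 24 counts in Ctrl and 2 to 4 in IR, and *Rnu11* (-2.15) had 32 to 67 and 6 to 15. Both met the filter through their Ctrl Inputs, where they are high, so their lower calls were favoured in advance. In the IP 6 were tested, of which *mt-Rnr1*, *mt-Rnr2* and *Gm26917* rose and none fell, against 6.12% and 9.85% of all genes (quasi-likelihood test of edgeR, Benjamini-Hochberg adjusted). The list was chosen with these results known and is no independent evidence of a direction.

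The mitochondrial rRNAs moved like the members and further in the IP. *mt-Rnr2* averaged 20301 ± 658 CPM in unirradiated Inputs and 6276 ± 95 CPM in irradiated Inputs, but 230 ± 10 CPM in unirradiated IPs and 1260 ± 33 CPM in irradiated IPs (SD, n = 3 each), a rise of 2.46 ± 0.048 on the log2 scale in the IP (SE, edgeR adjusted p = 1.82e-14). *mt-Rnr1* rose by 1.60 ± 0.064 (SE, edgeR adjusted p = 8.29e-11). Vault RNA *Vaultrc5* fell by 2.14 ± 0.076 on the log2 scale in the Inputs (SE, edgeR adjusted p = 4.15e-18) and differed in the IP by 0.60 ± 0.59 (SE, edgeR adjusted p = 0.565).

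The calls of 2 abundant snoRNAs ran differently. *Gm24539* and *Gm24095* had the highest mean level of that type over all libraries. This choice favoured genes high in unirradiated IPs (31.0 and 29.6 CPM). They did not pass the test in the Inputs (log2 fold changes -0.37 and -0.21, edgeR adjusted p = 0.0535 and 0.317). In the IP both were lower in IR, by 0.86 ± 0.17 and 0.81 ± 0.18 on the log2 scale (SE, edgeR adjusted p = 2.53e-03 and 4.96e-03). *Snord17* was higher than both in unirradiated Inputs (7.46 against 5.89 and 5.05 CPM). It fell in the Inputs by 2.19 ± 0.17 on the log2 scale (SE, edgeR adjusted p = 5.78e-11), like the members. Its IP difference was -0.36 ± 0.63 (SE, edgeR adjusted p = 0.766). Across whole annotation types without the members, 7 of 13 tested misc_RNA genes, 7 of 11 scaRNA genes, 24 of 67 snRNA genes and 24 of 74 snoRNA genes were lower in irradiated Inputs, as were 8 of 43 miRNA, 2 of 10 rRNA and none of 6 mitochondrial tRNA genes, against 23.9% of all genes. Higher were 7 snRNA, 4 miRNA and 2 snoRNA genes, and none of the misc_RNA, scaRNA, rRNA or mitochondrial tRNA genes. Counts on no gene made up 26.9% to 27.0% of the uniquely placed reads in unirradiated Inputs and 24.6% to 24.8% in irradiated Inputs, and 41.8% to 42.7% and 49.4% to 54.1% in the Ctrl and IR IPs. These shares were lower in irradiated than in unirradiated Inputs and higher in irradiated than in unirradiated IPs, as for the members together. They were higher in IPs than in Inputs in both conditions. The members together had a lower share of gene counts in IPs only in Ctrl. In IR their share was 0.669% in IPs against 0.636% in Inputs. The part of counts on no gene in the results was not tested.

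**Figure D4:**
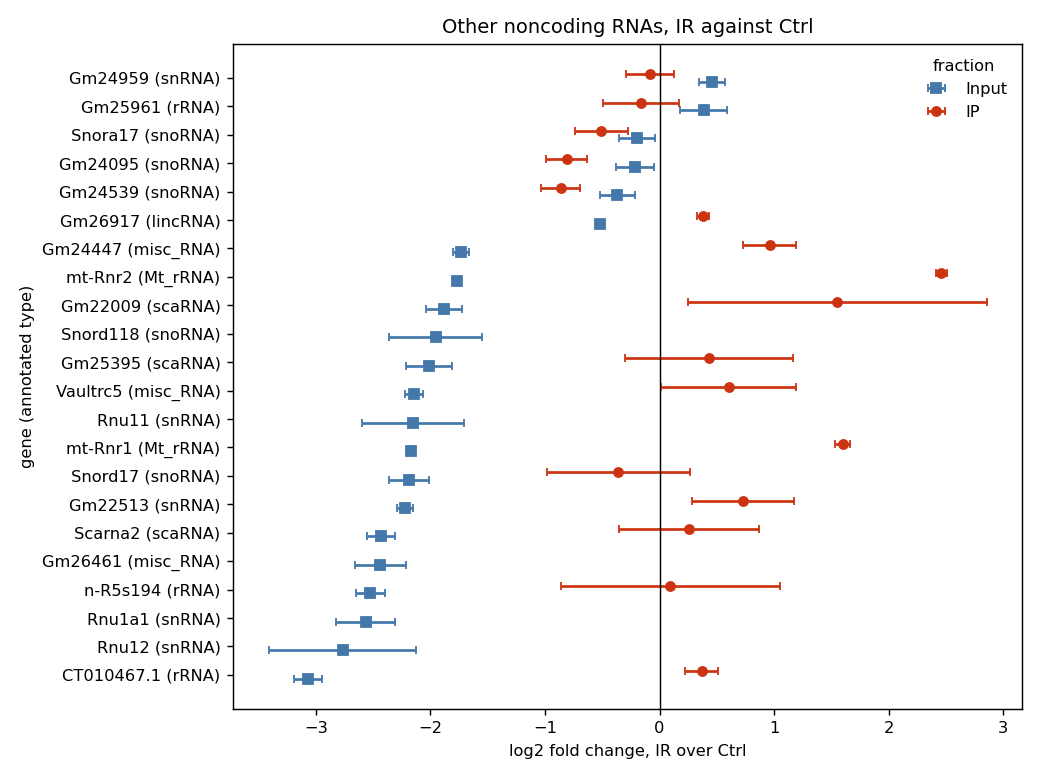
Log2 fold change of IR over Ctrl (horizontal axis) for other noncoding RNAs tested in the Input (squares) and, where they passed the filter, in the IP (circles), with standard errors (3 pools per group). Most lie between -3.07 and -1.73 in the Input, the snoRNAs Gm24539, Gm24095 and Snora17 lie near -0.37 to -0.20, and mt-Rnr1 and mt-Rnr2 lie furthest to the right in the IP.

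The mRNAs for the protein partners of these RNAs, 78 genes in 6 lists, had calls in both directions. In the Inputs 18 were higher and 23 lower in IR, shares to be read beside the 21.0% and 23.9% of all genes. In the IP 2 were higher and 25 lower, against 6.12% and 9.85% of all genes. With library size alone these IP counts were 5 and 13. The medians of the lists in the IP, from -0.55 to -0.17, stood beside 0.062 for all genes.

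Among the 7 genes of the 7SK and P-TEFb particle, 2 rose in the Inputs and none fell. *Ccnt1*, the cyclin of P-TEFb, rose by 0.27 ± 0.039 (SE, edgeR adjusted p = 3.09e-06) and *Cdk9*, its kinase, by 0.26 ± 0.036 (SE, edgeR adjusted p = 1.14e-06). In the IP 3 fell, and none rose. *Larp7*, which binds and protects the 3′ end of 7SK, fell by 0.81 ± 0.060 (SE, edgeR adjusted p = 9.19e-08) with no call in the Inputs (log2 fold change 0.0067, adjusted p = 0.912), and *Cdk9* and *Ccnt1* each fell by 0.30.

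Of the 10 genes for signal recognition particle proteins and their receptor, 4 rose and 4 fell in the Inputs. *Srp54a* fell by 1.33 ± 0.15 (SE, edgeR adjusted p = 5.57e-08), *Srp72* rose by 0.35 ± 0.036 (SE, edgeR adjusted p = 6.50e-09) and *Srpr*, the receptor, fell by 0.31 ± 0.058 (SE, edgeR adjusted p = 7.17e-05). *Srp54a* has near-identical copies, *Srp54b* and *Srp54c*, so its count is uncertain. In the IP *Srp19* fell by 0.29 ± 0.069 (SE, edgeR adjusted p = 7.79e-03), the single call of the list.

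Of the 11 genes for proteins of RNase P and MRP, 1 rose and 3 fell in the Inputs, and in the IP 5 fell. The Input calls with the largest changes were *Rpp14* (-0.40), *Pop1* (-0.35) and *Pop4* (0.15), and in the IP *Rpp38* fell by 1.05 ± 0.22 (SE, edgeR adjusted p = 4.08e-03), *Pop1* by 0.69 and *Pop5* by 0.62. Of the 8 telomerase genes, 1 rose and 4 fell in the Inputs. *Dkc1*, the pseudouridine synthase of telomerase and of H/ACA RNAs, fell by 1.13 ± 0.044 in the Inputs (SE, edgeR adjusted p = 2.40e-17) and by 1.53 ± 0.078 in the IP (SE, edgeR adjusted p = 1.13e-09), and *Gar1*, another H/ACA protein, fell by 0.61 and 1.04. In the IP 1 telomerase gene rose and 2 fell. The one that rose, *Tert*, the reverse transcriptase, named after its values were seen, rose by 1.59 ± 0.52 in the IP (SE, edgeR adjusted p = 0.0477) from 22 to 61 counts in unirradiated IPs to 72 to 211 in irradiated IPs, and by 1.22 ± 0.32 in the Inputs (SE, edgeR adjusted p = 2.80e-03).

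RNA polymerase III, which transcribes 7SK, 7SL and the RNAs of RNase P and MRP, was covered by 28 genes with its factors, of which 6 rose and 9 fell in the Inputs. *Polr3e* fell by 0.75 ± 0.087 (SE, edgeR adjusted p = 5.39e-08) and *Gtf3c4* by 0.49, whereas the median of the list was -0.020. In the IP 1 rose, *Gtf3c1*, also named after its values were seen (0.38 ± 0.11, SE, edgeR adjusted p = 0.0335), and 9 fell, among them *Polr3g* by 0.99 ± 0.099 (SE, edgeR adjusted p = 2.59e-06) and *Ssb*, the La protein that binds the 3′ ends of its transcripts, by 0.80 ± 0.065 (SE, edgeR adjusted p = 2.25e-07). Of the 14 RNA polymerase I genes, 4 rose and 3 fell in the Inputs, with *Polr1b* at -0.62, *Ubtf* at -0.50 and *Polr1a* at -0.40. In the IP 5 fell and none rose, among them *Polr1b* by 1.01, *Polr1a* by 0.89 and *Taf1d* by 0.78.

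**Figure D5:**
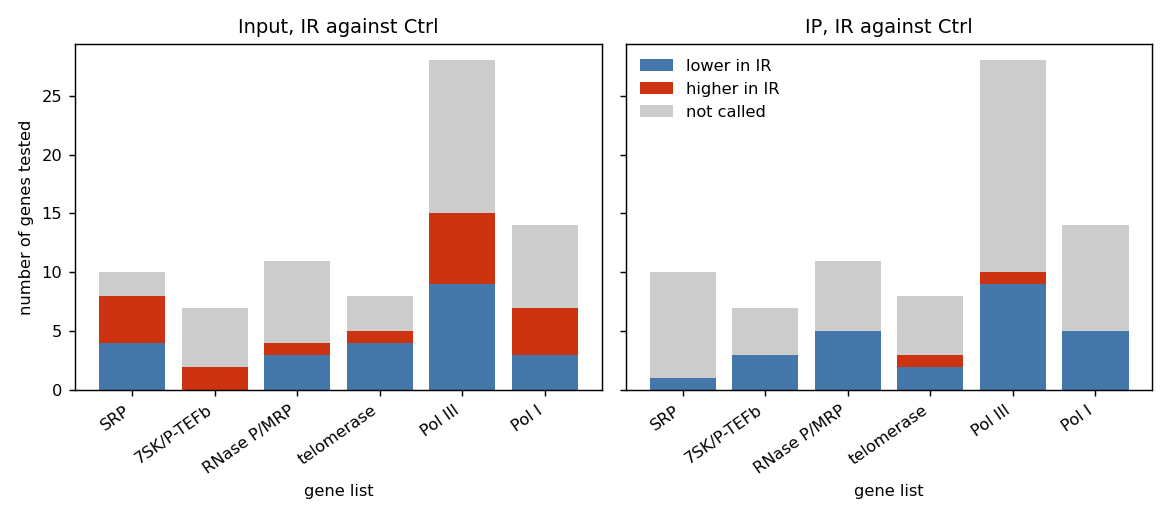
Number of genes tested (vertical axis) in 6 lists of protein partners (horizontal axis), coloured by the call of IR against Ctrl in the Input (left) and in the IP (right). In the IP 25 of 78 genes are called lower and 2 higher, and in the Input 23 lower and 18 higher.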

How the data were processed

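The authors trimmed reads with Trimmomatic 0.39, used HISAT for alignment to mm10 and deposited whole-number HTSeq counts per gene, without normalization. Reads with more than one alignment and ambiguous reads stood on separate lines and were left out. The option for strand is not given in the sources used here, but 206 of 454 genes wholly under opposite-strand exons had at least 10 counts, which counting without strand would set aside as ambiguous.

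Of 54446 identifiers, 99.9% matched GENCODE M21. After TMM normalization the counts were tested with edgeR 4.0.16 (R 4.3.3, quasi-likelihood test, at least 10 counts in at least 3 libraries, Benjamini-Hochberg over all genes, threshold 0.05). The SE is the absolute log2 fold change over the square root of F. DESeq2 1.42.0 was an alternative. The steps were tested on simulated counts. A count of 3, taken as the smallest detectable, was worth 0.0708 to 0.108 CPM on library totals without TMM. TMM rests on most genes being stable. In IP against Input most tested genes were called, with 5943 higher and 6019 lower of 17416 in Ctrl. In IR 5993 were higher and 5681 lower of 18650. Small values there depend on the scaling, such as *Rn7sk* in IR at -0.33, or -0.18 with library size alone. Member transcripts were aligned with blastn 2.17.0.

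The members and lists were chosen with earlier results of these data known. Named were all members, up to 3 called genes per partner list with the largest change, a mean of at least 100 counts and no overlap of groups, the 3 highest genes of 6 noncoding types, a list of other noncoding RNAs, and the 3 genes most alike in pattern. IP and Input libraries with the same number came from 1 lysate per the methods, although their deviations were hardly correlated (-0.023 to 0.040 over 11728 genes). Ctrl and IR pools with the same number came from different mice. Pools of each group differed by more than counting noise. Some items that the naming rule selects are not reported here.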

Additional observations from a re-analysis of the deposited data

Results flagged for a closer look

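For 5 members every IR Input lay below every Ctrl Input while every IR IP lay above every Ctrl IP. The difference between the log2 changes in IP and Input was 3.57 for *Rn7sk*, 3.48 for *Rn7s1*, 3.47 for *Rn7s2*, 3.54 for *Gm23935* and 3.40 for *Gm24270*. It was not tested, because the Input change entered the choice of the loci, and *Rn7s1* with *Rn7s2* and *Gm23935* with *Gm24270* share their sequences. With 3 pools per group no library could be examined as an outlier of its group.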

How the results depend on the processing

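Under the other settings no tested value of a member reversed. The untested values of *Gm23935* and *Gm24270* for IP against Input in IR changed sign with library size alone, from -0.14 to 0.0067 and from -0.13 to 0.014. Member calls ran from 3 to 6 for IR against Ctrl in the IP, with 4 reported and 6 under library size alone. For IP against Input in Ctrl they ran from 3 to 5, where *Rpph1* is 1 of the 4 calls of the fit. The 5 calls came without Ctrl IP pool 2 and include *Terc*. Like *Rpph1*, *Terc* met the filter there only through its Inputs. In IR the member calls were 3 throughout. Of the values of single members, 11 moved, 5 gained a call and 2 lost one. With all 12 libraries in one fit, 25 partner genes were called in the Input in place of 41 and 43 in the IP in place of 27, and the median change of the members in the Input was -2.63 in place of -2.70. That fit shares 1 estimate of the spread over all groups. Leaving out 1 Input at a time gave medians from -2.73 to -2.63, with *Rpph1* below the filter where a Ctrl Input was left out. Scaling by library size alone gave a median change of log2(IP/Input) of 3.78 in place of 3.48. With the replicate number as a replicate block, 4 members were called in Ctrl and 3 in IR for IP against Input, as without it. Between Ctrl and IR, whose numbers do not pair the pools, the replicate block called 5 members in the IP in place of 4. The added one was *Gm42418* (log2 fold change 0.11, edgeR adjusted p = 0.0335). Setting each IP against the mean Input of its condition gave the same median change of log2(IP/Input), 3.48. It had to by arithmetic, so it is no separate check. Depth limits *Rpph1* and *Terc*, with at most 48 counts in a library.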
